A study of Mus musculus with 9 samples.

Results

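The mitochondrial protein import machinery was followed by RNA sequencing of young and old mouse kidneys. Its genes were chosen by symbol, as every gene whose name starts with Tomm or Timm and a number, together with Samm50, Pam16, Dnlz, Grpel1, Grpel2, Pmpca, Pmpcb, Chchd4, Mtx1, Mtx2 and Gfer. The rule found 34 of the 13081 genes in the table, all 34 of which had enough counts to be tested. Kidneys came from wild-type mice of 3 months (young, 4 libraries) and of 16 months (old, 5 libraries), with no other allele and no treatment given in the labels. The study's methods give a C57BL/6 background, and the sex of each mouse is not given in the labels. Each library was made from total kidney RNA with a kit that reads the 3′ ends of polyadenylated transcripts. The titles carry one prefix for the young and another for the old libraries, so anything the prefixes stand for cannot be told apart from age. In whole-kidney RNA, fewer cells of a type and less RNA per cell cannot be told apart.

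Nearly all mitochondrial proteins are made in the cytosol and must cross the outer membrane, usually through the TOM complex, whose receptors (Tomm20, Tomm22, Tomm70) hand precursors to the channel Tomm40. Behind it the routes part. Barrel-shaped proteins go to the SAM complex of the outer membrane. Hydrophobic carriers are escorted through the intermembrane space by small TIM chaperones to the TIM22 complex. Precursors with a cleavable presequence pass the TIM23 complex and are pulled into the matrix by the motor around Hspa9 (mortalin), where the peptidase of Pmpca and Pmpcb removes the presequence. Small cysteine-rich proteins are trapped in the intermembrane space by the oxidase pair Chchd4 (Mia40) and Gfer. The kidney's proximal tubule is rich in mitochondria, since it drives solute reabsorption with ATP from oxidative phosphorylation.

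Sequences from RefSeq upstream of the members were searched because many nuclear genes of mitochondrial proteins share promoter motifs. Of the 34 members, 30 had a window of 250 bases before to 50 after the transcript start (RefSeq, GRCm38.p6). The 4 windows printed here belong to the largest fall (Pmpcb), a TOM receptor that fell (Tomm22), the small TIM with the largest fall (Timm8b) and the largest rise (Timm44). They run 5′ to 3′ from 250 bases before to 30 after the start, and capitals mark matches to the letters CCGGAAG (ETS), GCGCANGCG (core of the NRF1 motif) and AANATGGCG (YY1) on either strand.
Pmpcb, chr5:21736910-21737189, plus strand: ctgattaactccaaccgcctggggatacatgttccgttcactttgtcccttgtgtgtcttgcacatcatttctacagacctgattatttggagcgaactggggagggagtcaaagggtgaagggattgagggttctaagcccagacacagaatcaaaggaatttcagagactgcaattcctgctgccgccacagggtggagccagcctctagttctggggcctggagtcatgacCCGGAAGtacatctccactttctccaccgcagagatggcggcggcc
Tomm22, chr15:79670618-79670897, plus strand: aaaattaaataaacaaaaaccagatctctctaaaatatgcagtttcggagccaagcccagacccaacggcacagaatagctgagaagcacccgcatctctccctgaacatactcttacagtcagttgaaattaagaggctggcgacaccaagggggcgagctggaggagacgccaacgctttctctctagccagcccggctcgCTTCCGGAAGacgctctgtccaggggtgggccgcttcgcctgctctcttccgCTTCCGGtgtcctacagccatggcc
Timm8b, chr9:50603651-50603930, plus strand: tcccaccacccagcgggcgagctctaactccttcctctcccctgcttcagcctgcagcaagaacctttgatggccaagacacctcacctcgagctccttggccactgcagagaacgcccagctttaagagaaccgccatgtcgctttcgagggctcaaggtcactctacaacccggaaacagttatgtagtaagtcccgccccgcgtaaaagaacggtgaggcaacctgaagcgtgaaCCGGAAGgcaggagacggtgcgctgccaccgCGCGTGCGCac
Timm44, chr8:4275876-4276155, minus strand: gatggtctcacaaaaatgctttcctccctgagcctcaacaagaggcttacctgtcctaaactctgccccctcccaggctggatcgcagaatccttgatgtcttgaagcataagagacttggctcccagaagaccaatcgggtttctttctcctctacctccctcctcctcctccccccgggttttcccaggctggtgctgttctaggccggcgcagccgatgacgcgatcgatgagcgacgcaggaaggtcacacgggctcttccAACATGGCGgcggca

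The ETS letters, which factors such as Gabpa bind, were found in 14 of the 30 members with a window (46.7%), against 20.1% of the 9620 tested genes that had one and 9.93% of all 27025 genes with one. They were found in 9 of the 19 members with a window that were lower in old kidneys (47.4%), in 2 of the 4 that were higher and in 3 of the 7 that were not called. Matches to the NRF1 core were found in 5 members (16.7%, against 15.1% of those tested genes), namely Chchd4, Tomm20, Timm8b, Timm13 and Pam16. All 5 were called lower in old kidneys, as were 19 of the 30 members with a window and 30.5% of all genes tested. The share called lower among all tested genes with this motif was not worked out. The calls of Timm13 and Pam16 were lost under several alternatives, and Timm13 turned to 0.083 with the length trend removed. The YY1 letters were found in 4 members (13.3%, against 6.05%), which were Timm44, called higher, Samm50, called lower, and Mtx1 and Timm50, not called. Matches to different motifs did not overlap in any member, while ETS matches on opposite strands share bases in Tomm22 and in Timm10. A match describes the letters in the window and was not tested for binding.

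Old kidneys held less RNA of most import genes. Of the 34 members, 24 passed the test (limma, Benjamini-Hochberg adjusted p under 0.05 over 12667 genes), 20 of them lower and 4 higher. Much of the transcriptome differed between the ages: 59.7% of all genes tested were called, 30.5% lower and 29.2% higher, against 70.6%, 58.8% and 11.8% of the members. What this owes to age and what to the title prefixes cannot be told apart. Members that were lower by at least 2-fold numbered 10 (29.4%, against 13.9% of all genes tested). The ages did not overlap, in either direction, in 23 of the 34 members, and in 49.0% of all genes tested. The median log2 fold change, old minus young, was -0.57 over the members and -0.0027 over all genes tested. The summed normalised counts of the 34 members ran from 12111 to 12485 in the young libraries and from 6658 to 7929.6 in the old, a mean difference of -43.0%. The 4 higher members were Timm44, Timm10b, Timm22 and Grpel1, with log2 fold changes from 0.30 to 0.65. With the trend of each library's values on transcript length removed, the split was 17 lower and 7 higher, so the higher share of calls went from 16.7% to 29.2%.

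The membranes were then set side by side. Of the 12 outer membrane genes (TOM and SAM, with the cytosolic helper Tomm34 counted by its name), 9 were called lower (75.0%, against 30.5% of all genes tested) and 0 higher, although Mtx1 passed as higher when mitochondrially encoded genes were left out of the scaling or the length or GC trend was removed. Of the 12 inner membrane genes (TIM22, TIM23 and the motor), 4 were called lower and 3 higher (33.3% and 25.0%), shares near those of all genes tested (30.5% and 29.2%). That split was 2 lower and 4 higher with mitochondrially encoded genes left out of the scaling, 3 lower and 5 higher with the length trend removed, and 2 lower and 3 higher without young replicate 1 or without young replicate 2. The median log2 fold change was -0.82 for the outer and -0.17 for the inner membrane genes. The ages did not overlap in 11 of the 12 outer and 6 of the 12 inner membrane genes, against 49.0% of all genes tested. These counts hold both directions: Mtx1 of the outer membrane and Timm22, Timm44 and Grpel1 of the inner membrane lay higher in the old libraries. Summed over the outer membrane genes, the normalised counts were 5388 to 5737 in young and 2497 to 3172 in old libraries (-51.9%). For the inner membrane genes the sums were 2848 to 2931 and 2367 to 2689.9 (-14.0%). Neither pair of ranges overlapped. The inner membrane sum, however, moved through Timm23, whose count is uncertain: without it the sums were 2145 to 2223 in young and 2144 to 2367 in old libraries (2.40%) and overlapped. Without Tomm7, its most changed gene in counts, the outer membrane sum was 3758 to 4007 in young and 1961 to 2407 in old libraries (-45.4%). In each of the 5 old libraries the outer membrane genes stood lower than the inner, with a median difference from the young mean of -0.98 to -0.70 on the log2 scale against -0.27 to -0.0012. The difference between the compartments was not tested, since genes are not replicates of a compartment.

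**Figure D1:**
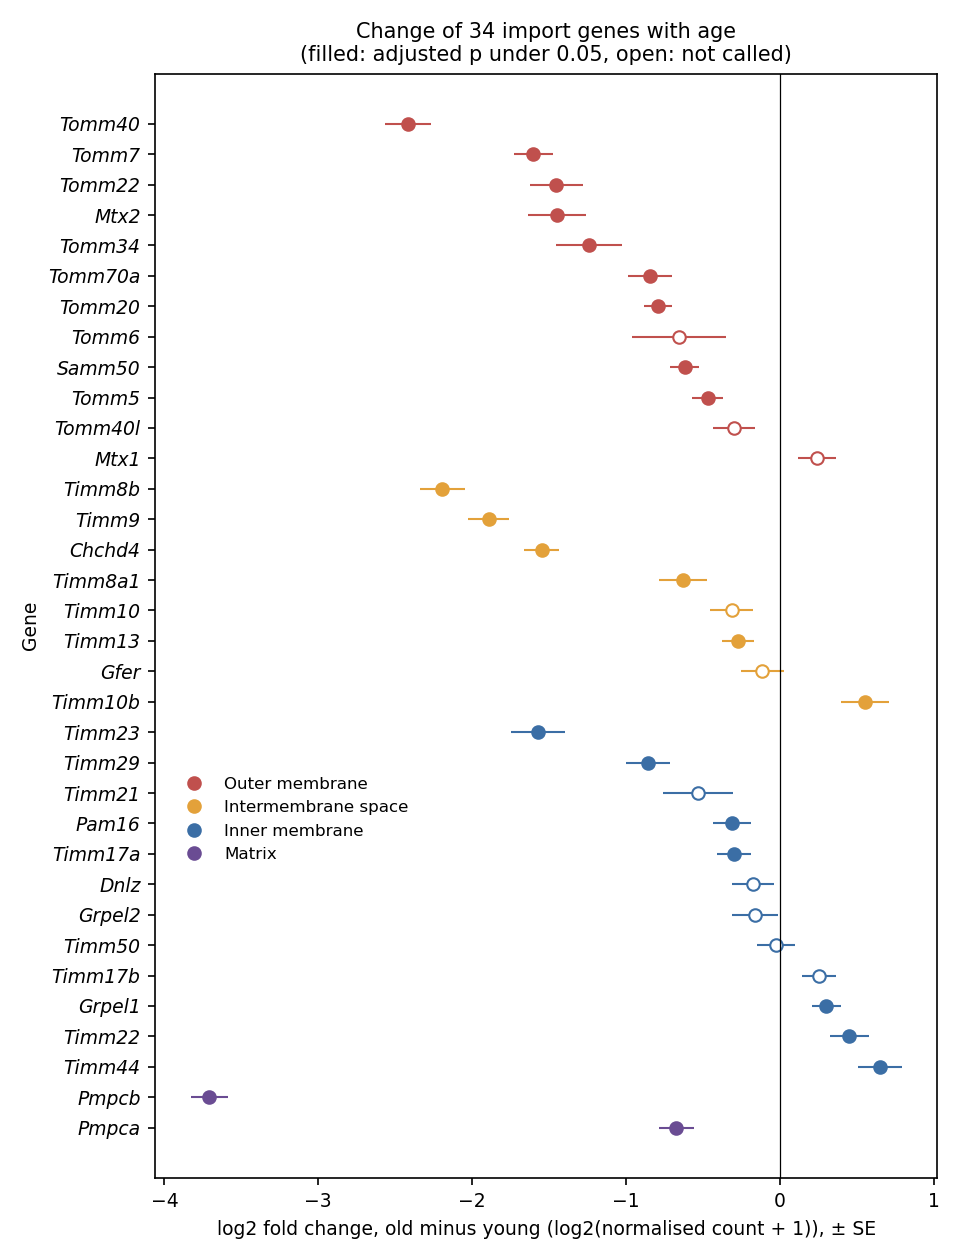
Log2 fold change (old minus young, on log2(normalised count + 1), x axis) of the 34 import genes, with bars for 1 SE, grouped by compartment. Filled points passed an adjusted p of 0.05: the outer membrane holds 9 falls and no rise (Mtx1 passed as higher when mitochondrially encoded genes were left out of the scaling or the length or GC trend was removed), while the inner membrane runs from -1.57 (Timm23) to 0.65 (Timm44), and Pmpcb lies farthest out at -3.71.

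Among the 8 genes of the intermembrane space, 5 were lower and 1 higher (62.5% and 12.5%, against 30.5% and 29.2% of all genes tested), with a median of -0.47, and their summed normalised counts were 2761 to 2929.5 in young and 1526 to 1837 in old libraries (-43.0%). With the length trend removed, 3 were lower and 1 higher, and the median was -0.11. Both genes placed in the matrix group, Pmpca and Pmpcb, were lower (100%, against 30.5% of all genes tested). Motor genes such as Grpel1, which was higher, were counted with the inner membrane. The 5 old libraries were not equally far from the young. Old replicate 2 stood nearest to them in 15 of the 20 members called lower (75.0%), against 41.1% of all genes called lower. Without old replicate 2, as without any other single library, 17 to 22 members were called lower and 4 to 5 higher.

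**Figure D2:**
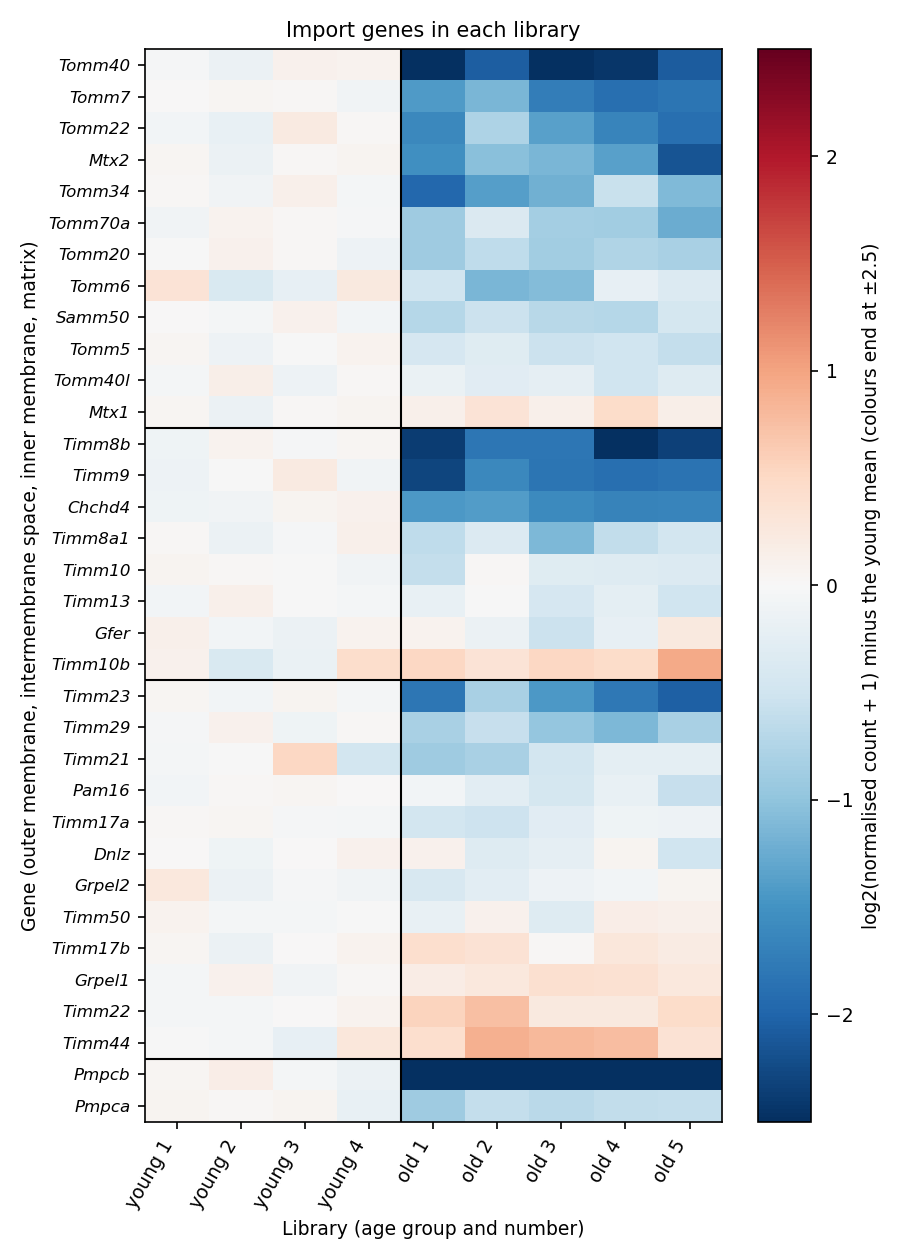
Level of each import gene (rows) in each library (columns), as log2(normalised count + 1) minus the mean of the young libraries, with colours ending at 2.5 on either side. The old columns are blue for most outer membrane genes and mixed for the inner membrane genes, and Pmpcb and Tomm40 are among the darkest.

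The TOM complex had 9 members, 7 of which were called lower and 0 higher (77.8% and 0%, against 30.5% and 29.2% of all genes tested). Tomm40, which forms the channel, held 512, 472, 568 and 555 normalised counts in the 4 young libraries and 81.3, 125, 73.0, 96.1 and 124 in the 5 old libraries. Every old library was below every young one, and the gene fell by 2.42 on the log2 scale (SE 0.15, limma adjusted p = 2.20e-10), or 5.34-fold. Tomm7, a small subunit that shapes the assembled complex, had the highest mean of the 34 members over all 9 libraries and in young kidneys, while in old kidneys Tomm20 (623) and Timm13 (618) had higher means than Tomm7 (569 normalised counts). Its counts were 1703, 1756, 1729.5 and 1599 in young libraries and 633, 766, 510.1, 459 and 477 in old libraries. The groups did not overlap, old replicate 2 was the highest of the old, and the gene fell by 1.60 (SE 0.13, limma adjusted p = 5.15e-09).

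All the receptors fell. Tomm22, the central receptor, went from 356 ± 43.0 (SD, n = 4) to 134 ± 43.6 normalised counts (SD, n = 5), a log2 fold change of -1.45. Tomm20, which recognises presequences, changed by -0.79 and Tomm70a, the receptor for carriers (the table's symbol for Tomm70), by -0.84. The cytosolic protein Tomm34, which chaperones precursors, changed by -1.24. Their limma adjusted p values ran from 6.46e-07 to 7.11e-05, and the ages did not overlap in any of the 4 (against 49.0% of all genes tested).

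The other TOM genes moved less. Tomm5, a small subunit, fell by 0.47 (limma adjusted p = 6.32e-04), a call that was lost once the length trend was removed (log2 fold change -0.05, adjusted p = 0.641, with a range over the alternatives of 4.90e-05 to 0.641). Tomm40l, a relative of Tomm40, was at 102 ± 8.35 in young and 82.5 ± 7.07 in old kidneys, and its log2 fold change of -0.30 did not pass (adjusted p = 0.0719). It passed as lower when scaled to the table total (adjusted p = 0.0482) and with the length trend removed (0.0145), with a range over the alternatives of 0.0145 to 0.353. Tomm6, another small subunit, was the member with the fewest reads, as few as 8 in a library. Its counts were 15.5 to 26.2 in young and 8.75 to 17.7 in old libraries, with a log2 fold change of -0.66 that did not pass (adjusted p = 0.0726, 0.0468 without old replicate 4, range over the alternatives 0.0468 to 0.455). Of the 50-base stretches in the last 500 bases of Tomm6, 50.1% also occur in the annotated gene Gm21981, so its count is uncertain. The symbols Tomm20l and Tomm70 are not in the table used here.

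The SAM complex inserts barrel proteins such as Tomm40 and the VDAC channels, and its 3 members did not move alike. Mtx2 held 185, 163, 184 and 187 normalised counts in young and 61.3, 86.4, 81.1, 70.0 and 39.3 in old libraries. All the old values were lower, with old replicate 5 the lowest, and the gene fell by 1.45 (SE 0.19, limma adjusted p = 2.33e-06). Samm50, the barrel core of the complex, was at 643, 621, 696 and 614 in young and 393, 439.7, 399, 392 and 474 in old libraries. Its groups did not overlap either, and it fell by 0.62 (SE 0.10, adjusted p = 2.07e-05). Mtx1, the partner of Mtx2, went from 130.2 ± 8.56 to 155 ± 17.1, a log2 fold change of 0.24 that did not pass (adjusted p = 0.0985).

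The small TIM chaperones form rings of alternating subunits, Timm9 with Timm10 and Timm8 with Timm13. Timm8b fell the most of the 6. It was at 697, 798, 730.4 and 772 normalised counts in young libraries and at 144, 212, 212, 120.3 and 147 in old libraries. The groups lay far apart, and the gene fell by 2.19 (SE 0.15, limma adjusted p = 5.32e-10), or 4.57-fold. Timm9 fell by 1.89 (SE 0.13), from 415 ± 46.0 to 112 ± 18.2. Its ring partner Timm10 went from 132 ± 6.35 to 107 ± 17.0, a log2 fold change of -0.31 that did not pass (limma adjusted p = 0.0595, 0.0150 without old replicate 2, range over the alternatives 0.0150 to 0.536). Timm8a1 fell by 0.63 (adjusted p = 0.00202, and 0.0918 with the length trend removed).

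Over all 9 libraries and in old kidneys Timm13 had the highest mean of the small TIM genes, while in young kidneys Timm8b (749) was above it (741). Timm13 was at 708, 805, 740.2 and 712 in young and 651, 735, 555, 627 and 523 in old libraries. The groups overlapped, and its fall of 0.27 (SE 0.10) was past the threshold by little: the limma adjusted p was 0.0327 in all libraries and 0.108 without young replicate 2, 0.0677 without young replicate 3, 0.0700 without old replicate 3 and 0.0788 without old replicate 5, with a range over the alternatives of 0.00645 to 0.476. Timm10b, which docks the Timm9 and Timm10 ring at the inner membrane, was the small TIM that rose. Its counts were 162, 117, 135 and 205 in young and 217, 193, 216, 209 and 292 in old libraries. Young replicate 4 lay within the old range and old replicate 5 stood above the rest, and the rise was 0.56 (SE 0.16, limma adjusted p = 0.00488). Timm8a2 is not in the table used here.

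Of the oxidase pair, Chchd4, which forms disulphides in incoming proteins, was lower in old kidneys. It held 296, 301, 336 and 344 normalised counts in young and 117, 120.3, 105, 99.8 and 101 in old libraries. No old library came near the young range, and the gene fell by 1.55 (SE 0.12, limma adjusted p = 2.42e-09), or 2.92-fold. Gfer, the oxidase that regenerates it, was at 247, 219, 207 and 241 in young and 243, 205, 156, 197 and 271 in old libraries. Those groups overlapped, and the log2 fold change of -0.11 (SE 0.14) did not pass (adjusted p = 0.503).

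**Figure D3:**
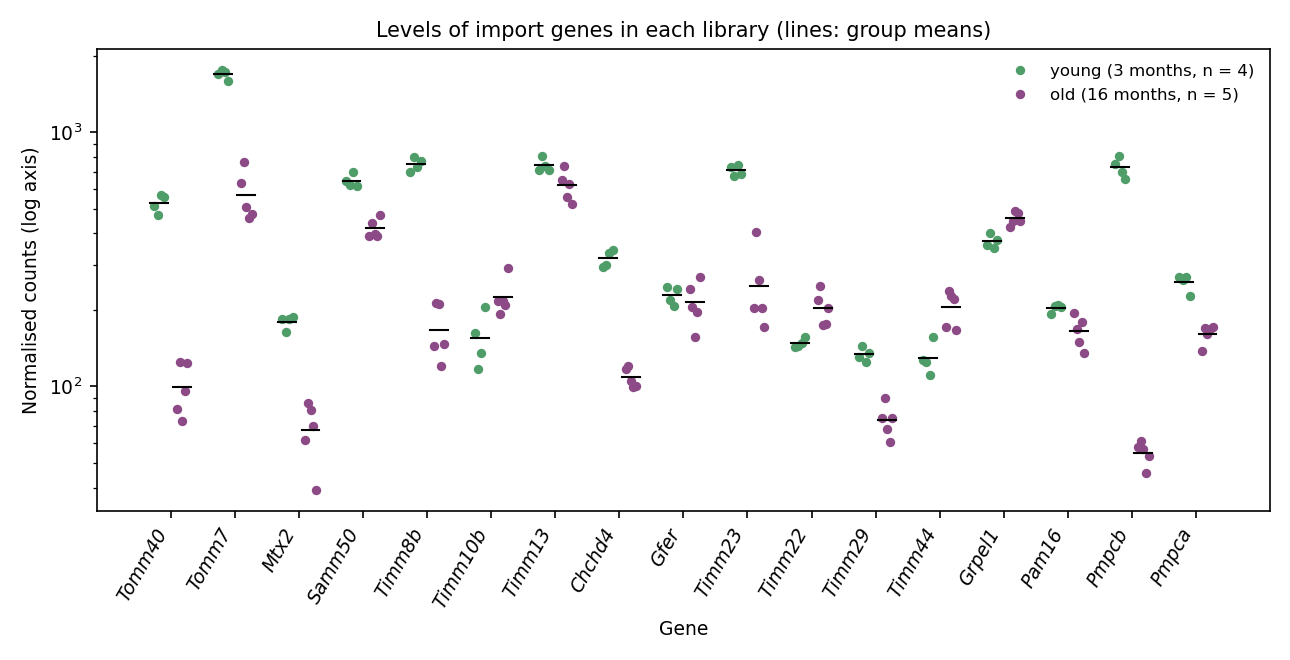
Normalised counts (log axis) of 17 import genes in the 4 young and 5 old libraries, 1 point per library, with lines for the group means. The ages are far apart for Tomm40, Timm8b, Chchd4 and Pmpcb, overlap for Timm13, Gfer and Pam16, and lie with the old libraries above for Timm22, Timm44 and Grpel1.

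In the TIM22 complex the channel and its partner moved in opposite directions. Timm22, the insertase of carrier proteins, was at 143, 144, 148 and 157 normalised counts in young and 219, 248, 174, 176 and 204 in old libraries. Every old value was above every young one, with old replicate 2 the highest, and the rise was 0.45 (SE 0.13, limma adjusted p = 0.00455). Timm29, which links the complex to TOM, was at 130.2, 144, 125 and 136 in young and 75.4, 89.7, 67.9, 60.6 and 75.3 in old libraries. It fell by 0.86 (SE 0.14, adjusted p = 4.81e-05) with no overlap.

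In the TIM23 complex 2 of 5 members were called (40.0%, against 59.7% of all genes tested), both lower. Timm23, the channel subunit, had the highest mean of the complex over all 9 libraries and in young kidneys, while in old kidneys Timm17a (311) and Timm17b (302) were above it (249). It held 732, 672, 744 and 685 normalised counts in young and 203, 406, 263, 204 and 172 in old libraries. Old replicate 2 was again nearest to the young range, and the gene fell by 1.57 (SE 0.17, limma adjusted p = 3.95e-07). Of the 50-base stretches in its last 500 bases, 94.5% occur in annotated near-copies such as Gm10171, none of which is listed in the table used here, so how reads were shared among the copies is uncertain. Timm17a, a channel subunit beside Timm23, fell by 0.30 (limma adjusted p = 0.0249), and the adjusted p was 0.0592 without young replicate 1, 0.0689 without young replicate 2, 0.0604 without old replicate 1 and 0.0549 without old replicate 2 (range over the alternatives 2.29e-05 to 0.214). Timm17b, the alternative to Timm17a, changed by 0.26 and did not pass (adjusted p = 0.0511, 0.0178 without old replicate 3, range over the alternatives 0.00129 to 0.162). It was called higher by edgeR (0.0435) and DESeq2 (0.0452), and also with genes under a mean of 100 left out, with mitochondrially encoded genes left out of the scaling and with the length or GC trend removed.

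Timm21, which couples TIM23 to TOM and to the respiratory chain, changed by -0.53 and did not pass (limma adjusted p = 0.0518). The adjusted p was 0.0214 without young replicate 4, 0.0404 without old replicate 4 and 0.0363 without old replicate 5, and over the alternatives it ran from 0.0214 to 0.222. Timm21 was also called lower by edgeR (0.0472), with a pseudocount of 5 (0.0491), scaled to the table total (0.0354) and with the GC trend removed (0.0259). Timm50, the receptor of the complex, went from 227 ± 10.5 to 226 ± 33.4, a log2 fold change of -0.024 (SE 0.12) with no call. It was called higher with the length trend removed (0.29, adjusted p = 0.0481), and over the alternatives its adjusted p ran from 0.0481 to 0.972.

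The import motor held 2 of the 4 rises. Timm44, which tethers the motor's chaperone to the channel, was at 127, 124, 111 and 157 normalised counts in young and 172, 238, 226, 220.1 and 167 in old libraries. All the old libraries were above all the young ones, and the rise was 0.65 (SE 0.14, limma adjusted p = 6.34e-04), or 1.57-fold. Grpel1, the nucleotide exchange factor of Hspa9 and the motor member with the highest mean, was at 359.5, 400.3, 351 and 378 in young and 424, 448, 489.8, 483 and 449 in old libraries. It rose by 0.30 (SE 0.09, adjusted p = 0.0102) with no overlap. Its relative Grpel2 changed by -0.16 (adjusted p = 0.361) and Dnlz, an escort of Hspa9, by -0.17 (adjusted p = 0.276), and neither passed.

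Pam16, which controls the J protein Dnajc19 within the motor, held 193, 207, 209.8 and 206 normalised counts in young and 194, 168, 149, 179 and 136 in old libraries. The groups overlapped by 1 old library. Its fall of 0.31 (SE 0.12, limma adjusted p = 0.0363) was past the threshold by little: the adjusted p was 0.0515 without young replicate 1, 0.0786 without young replicate 2, 0.0855 without young replicate 3, 0.0718 without young replicate 4, 0.0716 without old replicate 3 and 0.0849 without old replicate 5, with a range over the alternatives of 0.0162 to 0.903.

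The matrix processing peptidase showed the largest fall of the machinery. Pmpcb, its catalytic subunit, was at 748, 809, 699 and 657 normalised counts in young and 57.8, 61.3, 56.8, 45.7 and 53.0 in old libraries. All the old values lay far below the lowest young one, and the gene fell by 3.71 on the log2 scale (SE 0.12, limma adjusted p = 4.08e-14), or 13.1-fold, the 46th largest fall of the 12667 genes tested. Pmpca, the subunit that binds the presequence, was at 270.3, 262, 271 and 227 in young and 138, 169.6, 160.2, 168 and 171 in old libraries. It also fell without overlap, by 0.67 (SE 0.11, adjusted p = 5.40e-05), or 1.59-fold.

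Partner genes of a complex did not always keep their ratio. Since the kit reads 1 end per transcript, counts were compared between genes without dividing by length, and 11 pairs of partners, picked after their values had been seen, were described with no test. The ratio did not overlap between the ages in 8 of the pairs and overlapped in 3. How often the ratios of other gene pairs differ was not measured, while 49.0% of all genes tested did not themselves overlap between the ages. Pmpca to Pmpcb was 0.324 to 0.387 in young and 2.39 to 3.67 in old libraries. Timm9 to Timm10 was 2.74 to 3.68 in young libraries, and in the old libraries, at 0.973 to 1.10, the ring partners were near equal. Timm22 to Timm29 moved in the other direction, with 1 to 1.19 in young and 2.57 to 2.91 in old libraries. Mtx1 to Mtx2, a ratio that hardly varied among young libraries (0.718 to 0.730), was 1.75 to 3.68 in old ones. The ratio of the receptors Tomm20 to Tomm70a was 3.28 to 3.67 in young and 2.90 to 4.71 in old libraries, and the ranges overlapped.

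**Figure D4:**
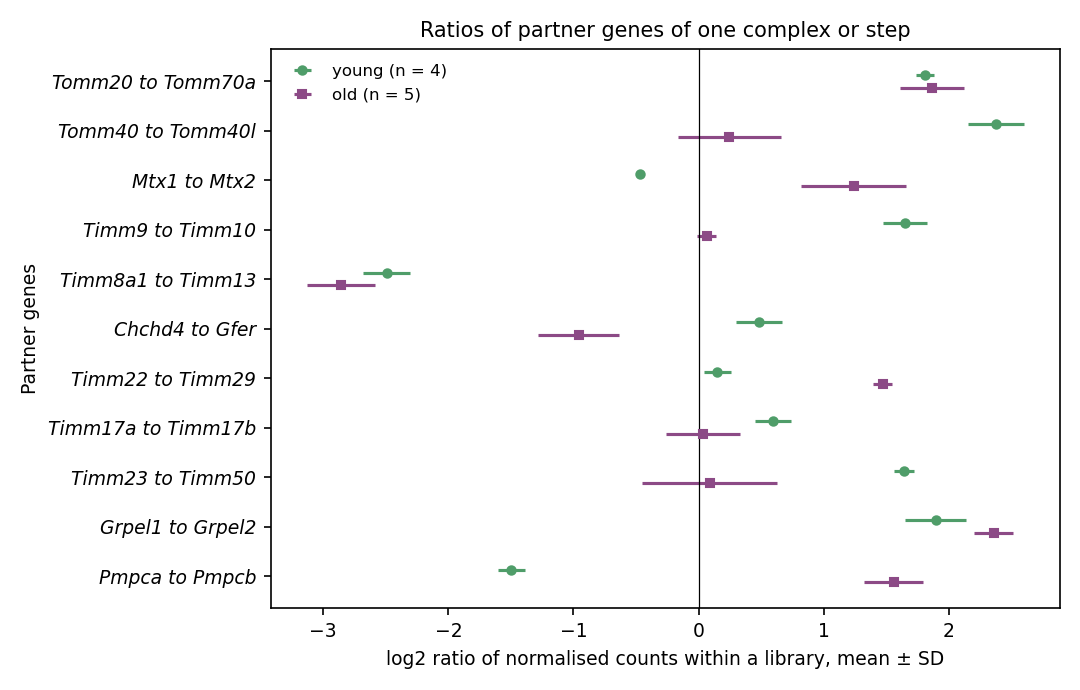
Log2 ratio of the normalised counts of 2 partner genes within each library (x axis, mean with bars for 1 SD) for 11 pairs, in young (n = 4) and old (n = 5) libraries. The means lie apart for Pmpca to Pmpcb (from -1.50 to 1.56) and close together for Tomm20 to Tomm70a (from 1.81 to 1.86).

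Genes around the machinery, from its partners to proteases and factors that drive mitochondrial gene programmes, were taken from a list of 60 tested genes. Of these, 42 were called, 28 lower and 14 higher (70.0%, 46.7% and 23.3%, against 59.7%, 30.5% and 29.2% of all genes tested), with a median log2 fold change of -0.20. Hscb, a J protein for iron-sulphur clusters, fell by 1.87 (SE 0.16, 138 ± 11.6 to 37.2 ± 5.43 normalised counts). Dnajc19, the J protein of the motor, was at 715, 731, 672 and 655 in young and 209.8, 243, 245, 227 and 213 in old libraries and fell by 1.60 (SE 0.10, limma adjusted p = 1.47e-10). Hspa9, the chaperone that pulls precursors in, was at 994 ± 46.5 and 1079 ± 134, with a log2 fold change of 0.11 that did not pass (adjusted p = 0.350). Its log2 fold change was 0.25 and passed with mitochondrially encoded genes left out of the scaling. Oxa1l, which inserts proteins from the matrix side, fell by 0.49 (SE 0.11).

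The largest rises on that list were of Pitrm1, which degrades cleaved presequences (1.43, SE 0.14), of the stress factor Ddit3 (1.05, SE 0.24) and of Yme1l1, the protease facing the intermembrane space (0.91, SE 0.15). The genes named next were picked after their values had been seen. Of the 6 genes of presequence and inner membrane peptidases, 3 were higher and 1 lower (66.7% called, near the 59.7% of all genes). All 3 matrix folding chaperones, Hspd1, Hspe1 and Trap1, were lower, by 0.28 to 0.63 (100%, against 30.5% of all genes tested). Of the 11 genes of quality control proteases 3 were lower and 2 higher (45.5% called, median 0.0075). Of the 7 genes of the cristae junction 3 were lower and 2 higher (71.4% called, median -0.13). Of 5 insertases and of 6 further motor and TIM23 partners, 4 each were lower and 1 each higher. Of 8 genes that deliver precursors from the cytosol, 5 were lower and 0 higher (62.5% called, near the 59.7% of all genes, and 62.5% lower, against 30.5%). Among the VDAC channels, which SAM inserts, Vdac1 and Vdac2 fell by 1.14 and 1.06 while Vdac3 rose by 0.65.

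Of 11 factors that drive mitochondrial gene programmes, 3 were lower and 4 higher (27.3% and 36.4%), shares near those of all genes tested (30.5% and 29.2%). The nuclear receptor Esrra fell by 1.59 (SE 0.14, 317 to 393 normalised counts in young and 101 to 163 in old libraries). The ETS factor Gabpa rose by 0.87, while Gabpb1, its partner without an ETS domain, fell by 0.99 and Tfam, which packages mitochondrial DNA, by 0.84. Yy1 rose by 0.86, and Nrf1 (log2 fold change 0.33, adjusted p = 0.147) and Ppargc1a (0.17, adjusted p = 0.201) were not called.

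**Figure D5:**
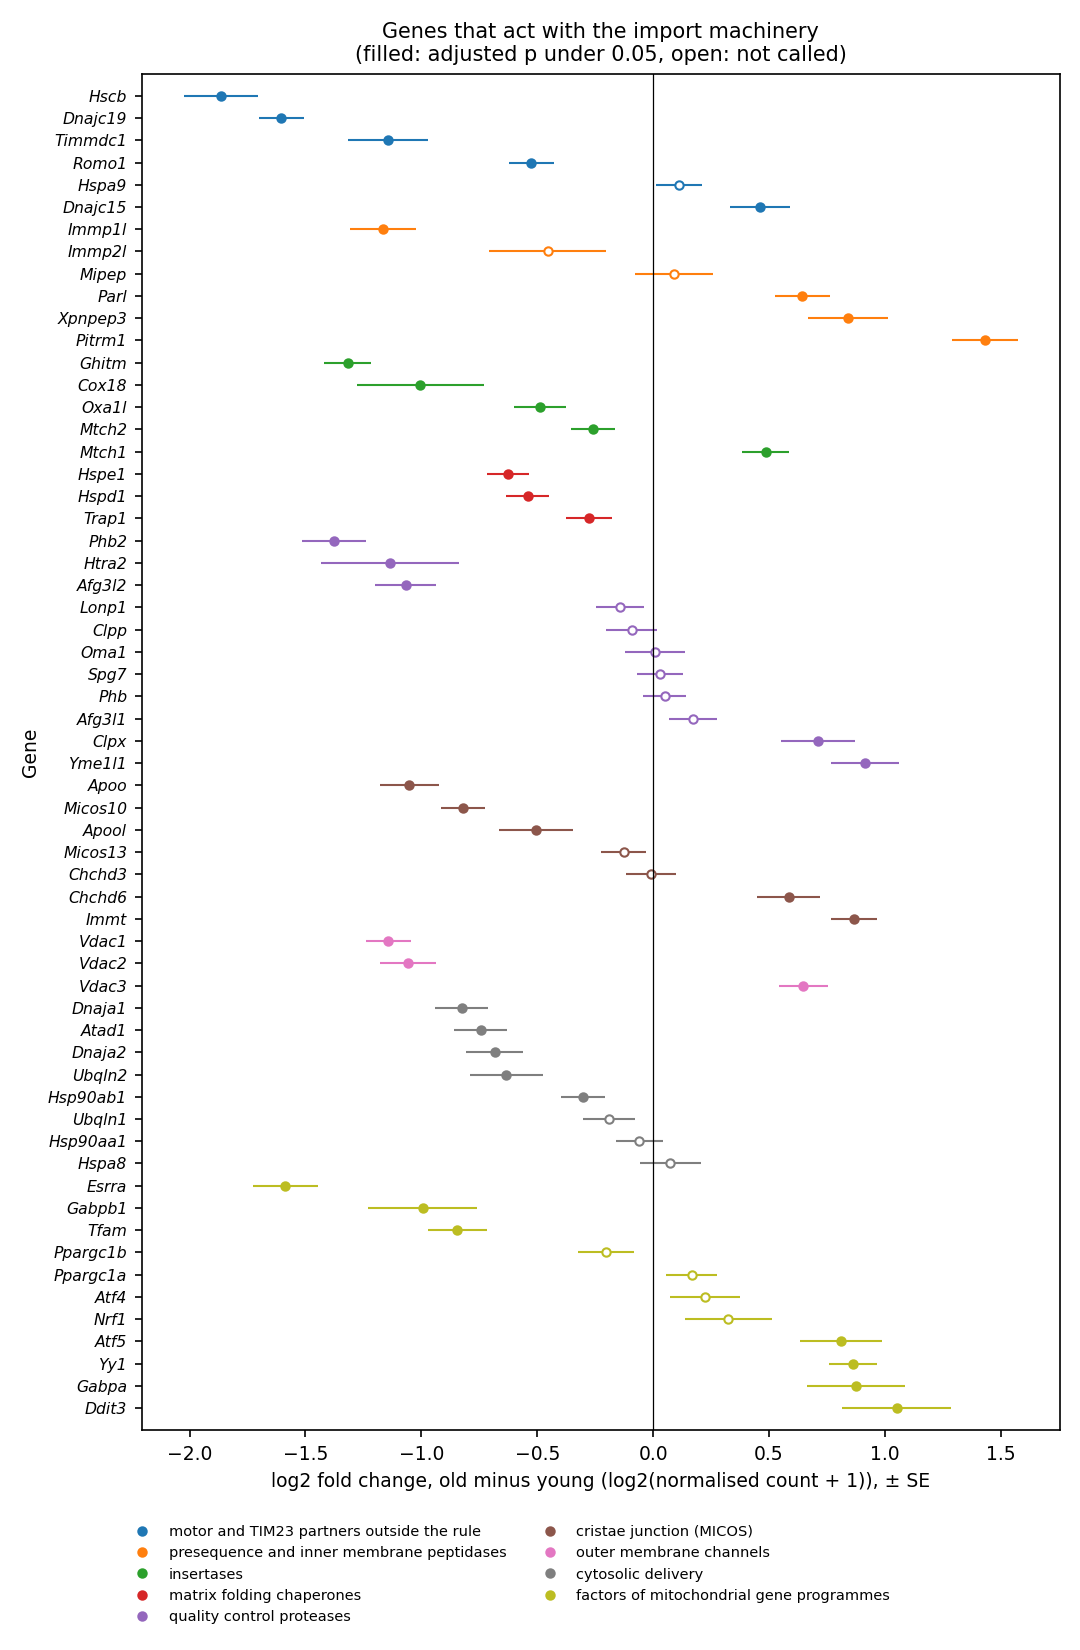
Log2 fold change (old minus young, on log2(normalised count + 1), x axis) of the 60 listed genes around the import machinery, factors of mitochondrial gene programmes among them, with bars for 1 SE, coloured by function. Filled points passed an adjusted p of 0.05: they run from -1.87 (Hscb) to 1.43 (Pitrm1), and Hspa9 lies near 0 at 0.11.

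Other measures differed between the ages beside these results. For the counts of markers below, the shares over all genes tested were 30.5% lower and 29.2% higher. Markers of the proximal tubule were present, and summed to 183857 to 217266 normalised counts in young and 122738 to 169011 in old libraries, with 6 of 10 lower, 2 higher and a median of -0.38. That sum was carried by Kap, and without it the sums were 42190.1 to 43829.6 and 37114 to 45959.5, which overlapped. Endothelial markers summed to 1239 to 1361 and 1658 to 2023 (5 of 7 higher, or 71.4%). The sums also did not overlap, with the old libraries higher, for the markers of the thick ascending limb (7269.9 to 7960.3 and 8391 to 11748, 1 of 4 higher), of the distal convoluted tubule (3205 to 4052 and 4684 to 5802, 1 of 3 higher and 2 lower) and of macrophages (1175 to 1362 and 1373 to 1929, 3 of 8 higher and 1 lower). Of the macrophage markers, 37.5% were higher and 50% called in either direction, against 29.2% and 59.7% of all genes tested. Without the gene that moved most in each (Slc12a1, Slc12a3 and Cd74), the thick limb and macrophage sums overlapped and the distal tubule sum was lower in old libraries (1359 to 1519 and 889 to 1267). Podocyte markers (3 of 5 higher and 1 lower) summed to 685 to 753 and 736 to 869.9, which overlapped, and without Podxl to 386 to 419 and 612 to 758, which did not. The sums of collecting duct markers (1802 to 2517 and 1015 to 2973, 3 of 6 lower and 1 higher, median -0.54), of fibroblast and mural markers (1555 to 1954 and 1016 to 1696, 3 of 6 lower and 1 higher, median -0.25) and of red blood cell markers (13530.2 to 19362 and 12446 to 30372, 2 of 5 higher and 1 lower) overlapped between the ages. Adipocyte markers varied within each age, with Adipoq at 0.819, 40.8, 2.94 and 0 normalised counts in young and 71.9, 8.75, 189, 0.933 and 15.9 in old libraries, and 1 of the 5 tested was lower. The 4 lymphocyte and plasma cell markers in the table summed to 243 to 700.2 and 922 to 3234, and all 3 that were tested were higher, while no adrenal or skeletal muscle marker was listed. Mitochondrially encoded genes took 27.0 to 29.7% of the reads in young and 35.8 to 38.1% in old libraries, and without the rRNA genes 23.8 to 25.3% and 12.7 to 15.0%. With these genes left out of the scaling, the median over all genes moved from -0.0027 to 0.13, the outer and inner medians were -0.68 and -0.026, and 17 members were lower and 6 higher. The part of these measures in the falls was not tested.

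Import genes had somewhat shorter transcripts than the table as a whole, with a median longest transcript of 2665 bases against 3331, and 2534 for the outer membrane, 2867 for the inner membrane and 1599 for the intermembrane space genes. Over 12455 genes of these libraries, length and log2 fold change had a Spearman correlation of 0.28, and over the 34 members 0.11, both given as descriptions across genes. With the length trend removed, the outer and inner membrane medians were -0.98 and -0.034. In the reference annotation (GENCODE, GRCm38), 15 members overlap an exon of a gene on the other strand, and the reads were counted by strand. In 4 members (Samm50, Timm10b, Timm23 and Tomm6) an exon overlaps another gene on the same strand.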

How the data were processed

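Total kidney RNA from 4 young (3 months) and 5 old (16 months) wild-type mice was turned into 3′ end libraries and sequenced as stranded single reads (extraction and kit per the labels, which name another version of the kit than the study's methods). The authors aligned the reads to GRCm39 with TopHat2 2.0.10, assigned them to genes with HTSeq 0.6.1, keeping strand, and divided them by DESeq size factors. The deposited values are therefore a signal on the scale of counts. The table starts at a gene mean of 4.49, and the rule that removed lower genes is not given in the sources used here.

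Whole reads were recovered from the steps in the values: 100% were whole multiples of 1 read, within 0.01, giving 4486406 to 6355095 reads per library over the listed genes. One read was worth 0.819 to 1.18 normalised counts, and no member was at or below the floor of 3 reads in any library. The floor covers counting error only, since PCR copies were not marked with molecular identifiers. Of the 13081 genes, 12856 (98.3%) were matched to the GENCODE annotation of GRCm38, whose coordinates were not joined to the deposited values.

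The test was limma 3.58.1 (R 4.3.3, variance trend) on log2(normalised count + 1), old against young, for genes that reached 10 normalised counts in 4 or more libraries, adjusted by Benjamini-Hochberg over all 12667 genes, and called under 0.05. Fold changes on this scale understate those of low genes. The script was tested on simulated data. As alternatives, the recovered reads were tested with edgeR 4.0.16 and with DESeq2 1.42.0, and other pseudocounts, filters and scalings, the removal of length or GC trends (lowess, span 0.5) and leaving out each library were tried. Values in every library are given for the largest called rise, the largest called fall and the highest mean of each role. The members and lists were chosen with earlier results of these data known.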

Additional observations from a re-analysis of the deposited data

Results flagged for a closer look

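In 2 of 92 gene and age groups, 1 library stood apart from the others of its age by Dixon's 95% criterion, where chance gives about 1 in 20 groups, or 4.6 here. Mtx2 was at 7.36 on the log2(normalised count + 1) scale in young replicate 2 and at 7.53 to 7.56 in the other young libraries. For Timm10b the highest old library, replicate 5, had 8.19, while the remaining old libraries lay between 7.60 and 7.77.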

How the results depend on the processing

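Alternatives were run for 42 genes, the 34 members and Hscb, Dnajc19, Esrra, Pitrm1, Ddit3, Yme1l1, Hspa9 and Oxa1l, and not for the other named genes. Of these, 28 kept their direction and their side of the threshold under every alternative run, and 14 did not in at least 1. Sums without their most changed gene were added after seeing the data. With all genes below a mean of 100 normalised counts left out, 4101 genes were called instead of 7568, since fewer were tested. Among the members, edgeR called 26 and DESeq2 25, against 24 by limma. With the length trend removed, 7 members were called higher instead of 4, and the median log2 fold change was -0.38 for the machinery, -0.98 for the outer membrane, -0.11 for the intermembrane space and -0.034 for the inner membrane genes. With mitochondrially encoded genes left out of the scaling, the medians were -0.43 for the machinery, -0.68 for the outer and -0.026 for the inner membrane genes. The direction turned in 4 genes: Gfer (0.028 with mitochondrially encoded genes left out, 0.16 with the length trend removed), Timm10 (0.10) and Timm13 (0.083) with the length trend removed, and Timm50 (0.12 with mitochondrially encoded genes left out, 0.29 with the length and 0.071 with the GC trend removed, and above 0 without young replicate 1, old replicate 1 or old replicate 3, against a range of -0.071 to 0.052 over all the libraries left out). The cause was not tested. Leaving out 1 library at a time, 21 to 26 members were called, 9 to 10 of the outer membrane, 5 to 7 of the intermembrane space and 5 to 8 of the inner membrane, and the machinery's median ran from -0.63 to -0.52. No paired analysis was possible because the titles carry no replicate numbers shared by the ages. Depth limits Tomm6 most, with as few as 8 reads in a library.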
